A study of Homo sapiens with 48 samples.

Results

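The genes described here are 39 interferon-stimulated genes, chosen by name: a feature on the array belongs to the list when its gene symbol is one of the 39, with RIGI also accepted under its older symbol DDX58. A gene with several features was represented by its brightest, taken as the mean over 48 samples. Of the 39 genes, 38 were measured among 20399 genes, and STAT2 was not analysed here.

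Interferons are secreted proteins that bind cell surface receptors, activate JAK kinases and send STAT proteins with IRF9 to the nucleus, where they switch on a large common set of genes. Type I interferon is made when a cell senses viral RNA or DNA, and macrophages both make it and respond to it. The products of the induced genes sense viral RNA, block translation and membrane fusion, degrade RNA, attract lymphocytes and feed back on the pathway.

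THP-1, a leukaemia-derived human monocytic cell line, was exposed to 6 carbon materials that its labels call rCNT, tCNT, Baytube, Graphite, Fullerene and SES. PMA, a phorbol ester, had first been used on all cells, controls included, to drive them towards macrophages. Each material was given at 100 µg in 1 ml of fresh medium for 6 or 24 h, and control cells received medium for the same time. Each of the 12 exposed groups held 3 samples and each of the 2 control groups held 6, which makes 48 samples in 14 groups. All cells were of a single line, and the labels do not say that the samples of a group came from separate cultures, so p-values rest on a spread that may be technical. The files give no count, and the number of arrays limits the precision. In cells measured in bulk, fewer responding cells and less RNA per cell cannot be told apart.

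The columns of the deposited table and their labels appeared to be out of step. Samples were hybridised in 3 dyes, so an array can hold 3 samples and should leave its surface marks in all of them. Such marks were compared through the smooth component of each sample over the order of the features. Between the 38 pairs of samples that the labels place on the same array its median correlation was -0.077, and between the 36 pairs lying 20 or 40 columns apart it was 0.854. The best match lay 20 or 40 columns away for 46 of 48 samples and was a labelled partner for 0. Over all genes, samples 20 or 40 columns apart had a mean correlation of 0.626, against -0.009 for samples of the same labelled group. Samples 20 or 40 columns apart are called a column set below, numbered 1 to 20; 8 sets hold 3 samples and 12 hold 2. No sample was moved to another group, and each group below means the samples labelled so. The sets are spread unevenly over exposed and control samples, and sets 1 to 4 hold exposed samples only. What the shared marks do to a difference between labelled groups cannot be told apart from the exposure here, most of all where a group's samples share a set.

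Marker lists were measured as a check of the labelled cells, with the limit that probes of different genes cannot be ranked by level. The mean log2 value of the 6 macrophage markers lay between 13.16 and 14.25 in every sample, while that of the 4 epithelial markers lay between 7.37 and 8.03 and that of the 4 fibroblast markers between 7.08 and 7.88. The mean of the 6 promyelocyte and monoblast markers lay between 9.49 and 12.27, and that of the 5 measured lymphocyte markers between 8.19 and 9.78. Among the promyelocyte markers the lowest mean was 6.61 for MPO, on a scale that starts at 6.05, and the other 5 had means from 10.66 (PRTN3) to 13.44 (AZU1). Single genes varied within the other lists too, so a list mean does not describe each marker. Lymphocyte markers had means from 6.86 (MS4A1) to 11.30 (GNLY), fibroblast markers from 6.83 (COL1A1) to 9.32 (PDGFRA) and macrophage markers from 10.25 (FCGR2A) to 15.71 (MMP9).

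The promoters of some of these genes are shown first, because most of them hold the core of the element that binds the STAT and IRF9 complex, which the choice by name did not use. The motif searched was GAAA, then any 2 bases, then GAAA again, on both strands, in 300-base windows of RefSeq genes on GRCh38.p14 that run from 250 bases before the gene's start to 50 bases after it. Of the 39 genes 32 had a promoter in the table, and 21 of these (65.6%) held at least 1 match, 13 of them more than 1. Over all 35116 promoter windows the share was 3.57%. That share counts windows and is not limited to measured genes, while each list gene was counted once. A match is a run of letters and not a measured binding site. Stretches upstream of the start are given for ISG15 and IFIT1, common markers of the interferon response, and for 4 genes described below, on the strand of the gene, 5′ to 3′, with the matches in capitals (TTTC marks a match on the other strand).
ISG15: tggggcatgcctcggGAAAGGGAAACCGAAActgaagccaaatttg
IFIT1: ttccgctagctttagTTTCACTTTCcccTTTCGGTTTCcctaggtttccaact
IFIT3: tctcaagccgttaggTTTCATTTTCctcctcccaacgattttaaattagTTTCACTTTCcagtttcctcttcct
IFITM3: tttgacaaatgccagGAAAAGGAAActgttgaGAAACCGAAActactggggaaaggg
CXCL10: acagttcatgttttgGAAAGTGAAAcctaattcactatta
EPSTI1: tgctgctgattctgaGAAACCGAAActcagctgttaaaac

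The ISG15 stretch is chr1:1013369-1013414 on the plus strand, and its matches overlap. That of IFIT1 is chr10:89392492-89392544 and that of IFIT3 chr10:89327826-89327899, both on the plus strand. The others lie on the minus strand: IFITM3 at chr11:320871-320927, CXCL10 at chr4:76023694-76023733 and EPSTI1 at chr13:42992267-42992306. These stretches lie upstream of the annotated gene. The window of DDX60 held 2 matches but lies within the annotated gene, and it is not shown. Those of ISG20 and IFI27 also lie within the annotated gene, and they count among the genes with a match. The windows of RSAD2 and XAF1 held 0 matches, and that of XAF1 lies within the annotated gene too.

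The list lay in the upper part of the scale. All 38 gene means lay above the median gene, from the 57.1st percentile for CXCL11 to the 98.8th for IFITM3, and all 38 standard deviations over samples lay above that of the median gene. Values are log2 fluorescence and do not rank genes against each other, since probes differ. IFITM3, which keeps viruses from fusing with endosomes, reached 15.98, and BST2, which tethers budding virus to the cell surface, reached 15.93. Both approach the top of the scale at 16.00, and saturation was not examined.

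**Figure D1:**
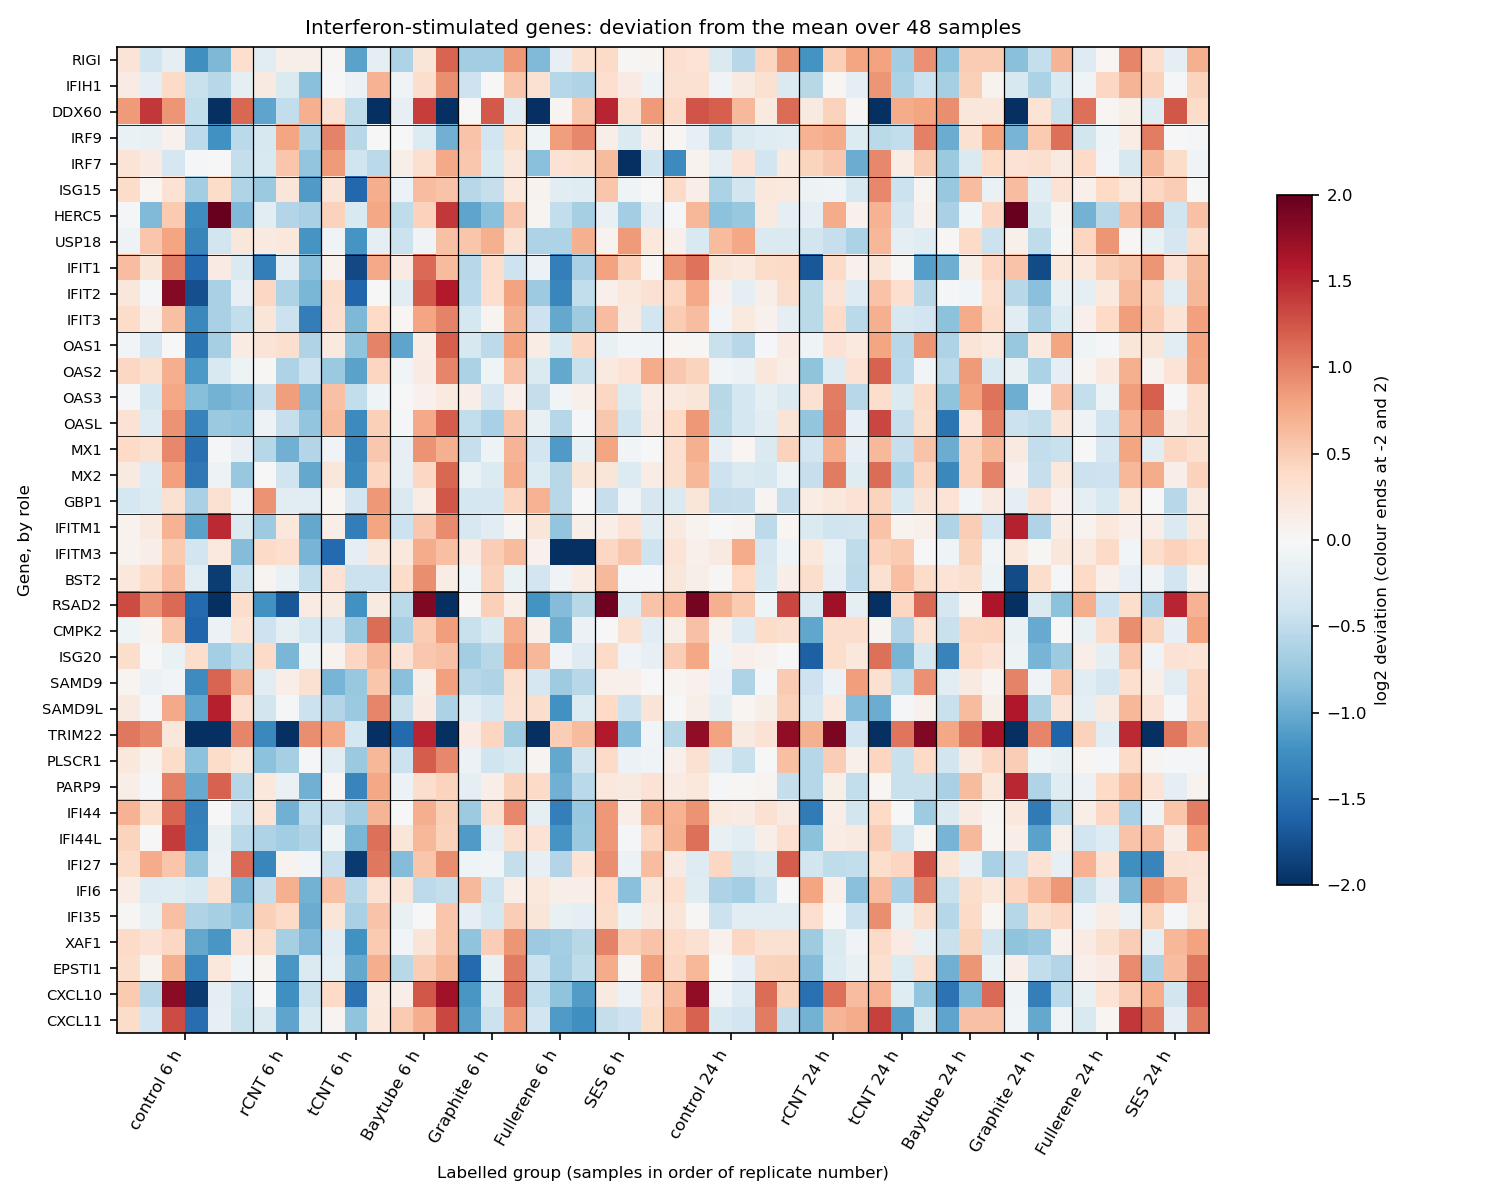
Each row is 1 of 38 interferon-stimulated genes and each column 1 of 48 samples, arranged by labelled group; colour gives the log2 value minus the gene's mean. Control 6 h replicate 4 is the lowest sample for 14 genes, while DDX60 and TRIM22 follow another pattern.

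Interferon probes read low on the scale. IFNB1, the main type I interferon of macrophages, had a mean of 6.73 ± 0.18 (SD, n = 48) and IFNA2 of 6.93 ± 0.23 (SD, n = 48). IFNL1, a type III interferon, reached 8.02 in its highest sample, and IFNL2 had a mean of 7.50. The receptor chains had means of 11.46 ± 0.59 for IFNAR1 and 12.26 ± 0.45 for IFNAR2 (SD, n = 48). Probes of 2 genes cannot be ranked by level, and each value only places its gene within the scale.

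The first question is which of the 38 genes differed between a material and medium at the same time. The test was a limma fit of all 48 samples, with Benjamini-Hochberg adjustment over all 20399 genes in each comparison. In 456 tests of the list against control, 1 passed an adjusted p of 0.05: IFITM3 was lower in the samples labelled Fullerene 6 h. In that comparison 0.446% of all genes passed, and the list gave 1 of 38. In the other 11 comparisons 0% of all genes and 0 of the 38 passed. At an unadjusted p under 0.05 the list gave 13 of 456 tests (2.85%), against 4.5% of all genes. At 6 h the list gave 3 of 38 in Fullerene (11.2% of all genes), 1 in Baytube (0.941%), 1 in SES (0.677%) and 0 in rCNT (2.31%), tCNT (6.27%) and Graphite (1.94%). At 24 h it gave 6 in Graphite (15.7%), 1 in rCNT (4.5%), 1 in SES (2.97%) and 0 in tCNT (2.19%), Baytube (4.69%) and Fullerene (0.613%). In 20 of the 24 combinations of comparison and direction, 0 members lay wholly above or below the controls, where 0.157% to 3.31% of all genes did. The median SE of a difference was 0.42 for the list and 0.26 for all genes.

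The membrane restriction factors include the gene that passed. IFITM3 read 15.31, 12.80 and 12.33 in Fullerene 6 h replicates 1, 2 and 3. In the 6 control samples at 6 h it ran from 14.37 to 15.75 with a median of 15.33, so 2 of 3 exposed samples lay below every control and replicate 1 lay within them. The difference was -1.70 ± 0.39 (SE) on the log2 scale (limma adjusted p = 0.0296). Both low samples belong to column set 3, and so does tCNT 6 h replicate 1, which read 13.68. These are the 3 lowest values of 48, since the lowest of the others was 14.30. The surface component at this feature was between -0.02 and 0.06 in set 3. With column sets as a random block, a setting added after seeing the data, the difference was -1.53 and the adjusted p 0.118. It was -1.22 (adjusted p = 0.409) without Fullerene replicate 3, -1.26 (adjusted p = 0.754) without replicate 2, and -2.62 (adjusted p = 3.74e-06) without replicate 1. Without any 1 of control replicates 1, 2, 3 or 5 the adjusted p lay between 0.0521 and 0.0775. At 24 h, IFITM3 read 15.43, 15.61 and 15.17 in the Fullerene samples, within the controls of that time, and the change with time was 1.73, which did not pass (lowest adjusted p of the list 0.695).

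The other membrane factors did not share the pattern. BST2 in Fullerene 6 h was 14.62, 14.93 and 15.15, with a difference of 0.11 ± 0.35 (SE). That difference includes a low control, replicate 5 at 13.11. The other controls at 6 h ran from 14.58 to 15.63, and all 3 Fullerene samples lay within them. IFITM1, a relative of IFITM3 at the cell surface, differed by -0.32 ± 0.42 (SE). The plasmacytoid dendritic cell list was checked beside IFITM3, because those cells are the main producers of interferon. Of its 4 markers, IL3RA, the receptor chain for interleukin 3, was also lower in Fullerene 6 h, by -1.59 ± 0.36 (SE; limma adjusted p = 0.0287). The mean of the 4 markers ran from 8.89 to 9.04 there and from 9.13 to 9.55 in the controls. The other 3 markers had no unadjusted p under 0.05, and the median difference of the 4 was -0.06. Its part in the result was not tested.

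Graphite 24 h held the most list genes with an unadjusted p under 0.05, and it also held the most genes overall. They were 6 of 38 (15.8%), against 15.7% of all 20399 genes, and none passed adjustment (lowest adjusted p 0.209). The share was near that of all genes. With column sets as a random block 0 of 38 remained at an unadjusted p under 0.05, and 1.89% of all genes. RSAD2, which makes an antiviral nucleotide analogue, read 7.08, 9.77 and 9.24 there and from 9.97 to 11.98 in the controls at 24 h, with a median of 10.77. All 3 samples lay below all controls, and the difference of -2.22 ± 0.85 (SE) rested in part on replicate 1, as it was -1.41 without it. IFI6, a mitochondrial protein that inhibits apoptosis, read 15.13, 15.32 and 15.57, above the controls at 14.02 to 15.04. Its difference was 0.91 ± 0.35 (SE; limma adjusted p = 0.211), and 6.48% of all genes lay wholly above control there. The list stood above control in 15 of 38 genes (39.5%), against 53.1% of all genes, with a median of -0.33.

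Other members differed in Graphite 24 h without passing adjustment. IFIH1, IFIT3, OAS2 and ISG20 lay below every control, as did RSAD2, which makes 5 of 38 (13.2%) against 3.88% of all genes. The 3 samples of IFIT3 were 11.76, 11.34 and 11.72, and the lowest control was 11.80. CXCL10, the chemokine that draws T cells, differed by -1.28 ± 0.62 (SE), and IFI44 by -0.99 ± 0.44 (SE). When only the 2 groups of that comparison were fitted, ISG20 at -0.82, IFI44 at -0.99 and CXCL10 at -1.28 passed, with limma adjusted p from 0.0238 to 0.0455, beside 814 genes in all (3.99%). Of the other members at an unadjusted p under 0.05, DDX60 was at -2.01 (7.05, 10.76 and 10.05, and -0.92 without replicate 1) and XAF1, which counters inhibitors of caspases, at -0.79.

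Baytube 6 h stood above control for most of the list. Of 38 genes 31 were higher, 81.6% against 52.7% of all genes, with a median difference of 0.46 against 0.01 over all genes. The chemokines had the widest differences: CXCL10 read 10.47, 11.57 and 12.01, and CXCL11 9.65, 9.85 and 10.47. The controls at 6 h ran from 8.42 to 12.14 for CXCL10 and from 7.60 to 10.43 for CXCL11, so neither group was separate. IFIT3, which helps IFIT1 bind viral RNA, was 0.83 ± 0.39 (SE) higher, the only member with an unadjusted p under 0.05, beside 0.941% of all genes. No member passed adjustment (lowest adjusted p 1).

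SES 6 h stood above control in 30 of 38 genes, 78.9% against 50.3% of all genes, with a median difference of 0.29. XAF1 read 11.15, 10.63 and 10.73, and all 3 lay above the controls, whose highest value was 10.57. Control replicates 4 and 5 read 9.13 or below, and the other controls 10.42 or above. The XAF1 difference was 0.82 ± 0.36 (SE; limma adjusted p = 1), and 0.471% of all genes were separate in that direction. It was 0.58 without control replicate 5, and 0.33 in the lowest of the other settings. IRF7, the transcription factor that amplifies interferon production, read 13.14, 10.38 and 12.11, so replicate 2 alone carried its difference of -0.56 ± 0.42 (SE), which became 0.21 without it. That sample belongs to column set 6, whose 3 samples read 10.38 to 11.51 for IRF7, below every other sample.

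At 6 h the list median was lowest in Fullerene and rCNT. In rCNT 6 h, 31 of 38 genes were below control (7 above, 18.4% against 50.2% of all genes), with a median of -0.29. In Fullerene 6 h, 27 of 38 were below (11 above, 28.9% against 48.6% of all genes), with a median of -0.42. PLSCR1, an interferon-induced membrane protein, read 12.74, 12.89 and 13.51 in rCNT 6 h against controls from 12.74 to 13.92. The groups overlapped, and the difference was -0.57 ± 0.30 (SE). IRF9 stood the other way in Fullerene 6 h, at 12.17, 13.09 and 13.21 against 11.04 to 12.35, a difference of 0.98 ± 0.43 (SE; limma adjusted p = 0.384). Its 2 higher values were from column set 3, as for IFITM3. IRF9 read 12.78 or above in every sample of sets 1 to 4, and 12.62 or below in all other samples, exposed or control. Sets 1 to 4 hold 12 samples of several materials and times, all of them exposed and none a control. Each labelled group with a sample there also has at least 1 sample in another set, which read 12.62 or below, as Fullerene 6 h replicate 1 did at 12.17. With no control in sets 1 to 4, set and exposure cannot be told apart within them. What the sets do to this difference was not tested.

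The differences depended on whether the column sets entered the fit. With the sets as a random block, 0 of 38 genes were above control in rCNT 6 h (52.9% of all genes were), and the median went from -0.29 to -0.53. It went from -0.42 to -0.86 in Fullerene 6 h, from -0.15 to -0.51 in tCNT 6 h, from 0.13 to -0.19 in Graphite 6 h, from 0.29 to 0.05 in SES 6 h and from 0.46 to 0.37 in Baytube 6 h. At an unadjusted p under 0.05 that fit gave 11 of 38 genes in rCNT 6 h (28.9% against 1.56% of all genes), 15 in Fullerene 6 h (39.5% against 8.68%), 6 in tCNT 6 h (15.8% against 7.22%), 3 in Graphite 6 h (7.89% against 4.8%), 1 in SES 6 h (2.63% against 5.97%) and 7 in Baytube 6 h (18.4% against 1.58%). At 24 h it gave 0 of 38 in all 6 materials, where 0.554% to 7.08% of all genes did. The list genes above control at 24 h went from 15 to 7 of 38 in Graphite, from 22 to 10 in Fullerene and from 15 to 8 in Baytube. They went from 11 to 8 in rCNT, from 20 to 21 in tCNT and from 28 to 32 in SES. Of all genes, that fit placed 52.3%, 48.5%, 49.3%, 50%, 54.9% and 51.7% above control in that order. In tCNT the share of the list, 55.3%, was near that of all genes. The list medians were -0.23, -0.08, -0.18, -0.20, 0.04 and 0.21 in the same order. The members move together, so these are not independent counts, and 0 of 38 passed adjustment in any of the 12 comparisons. The block was chosen after seeing the data and treats each set as 1 array, with a correlation of 0.72 within sets.

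**Figure D2:**
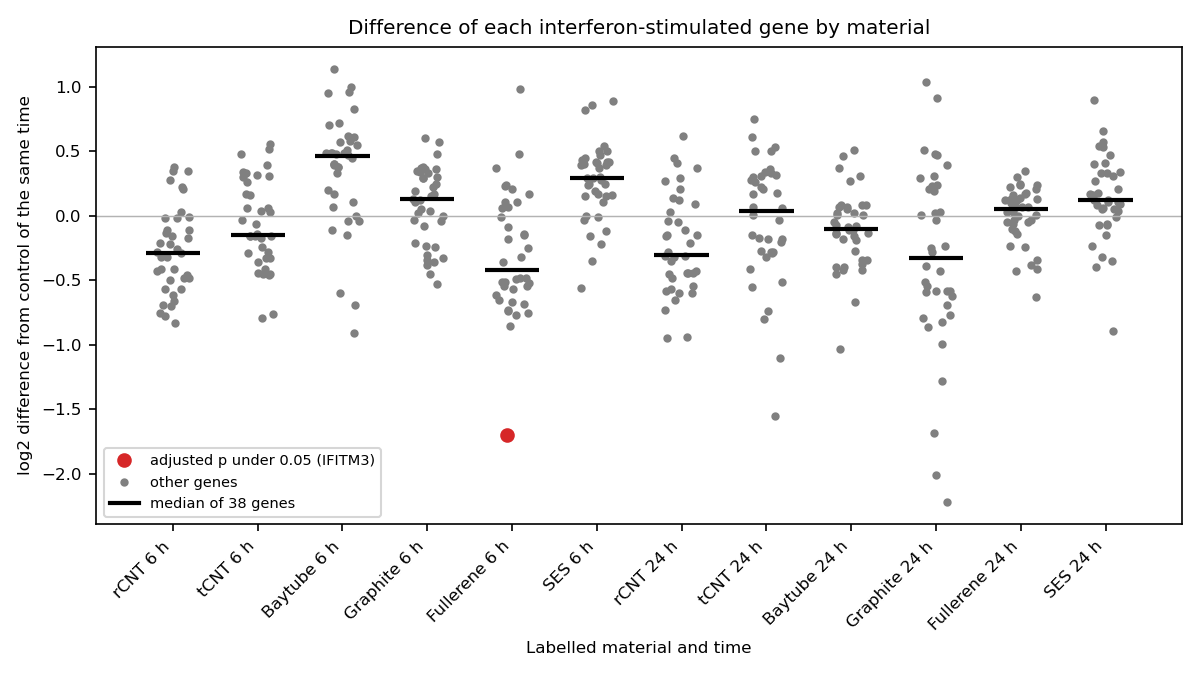
For each of 12 labelled materials and times the points are 38 genes, the height is the log2 difference from the control of the same time, and the bar is the median. The red point is IFITM3 in Fullerene 6 h at -1.70, and the medians run from -0.42 to 0.46.

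The remaining groups are given by their medians. The median of the list was -0.15 in tCNT 6 h, 0.13 in Graphite 6 h, -0.30 in rCNT 24 h, 0.04 in tCNT 24 h, -0.10 in Baytube 24 h, 0.05 in Fullerene 24 h and 0.12 in SES 24 h. The genes above control were 16 of 38 in tCNT 6 h (50.3% of all genes), 25 in Graphite 6 h (49.2%), 11 in rCNT 24 h (47.7%), 20 in tCNT 24 h (54.2%), 15 in Baytube 24 h (48.8%), 22 in Fullerene 24 h (52.6%) and 28 in SES 24 h (49.2%). In rCNT 24 h, USP18, IFI44 and XAF1 lay below every control, 3 of 38 (7.89%) against 2.18% of all genes, and IFI44 differed by -0.95 ± 0.44 (SE). USP18, the protease that removes ISG15 from proteins, read 12.67, 12.58 and 12.41 there. In SES 24 h, IFI6 read 15.59, 15.44 and 14.96, a difference of 0.90 ± 0.35 (SE; limma adjusted p = 1).

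Low single samples set some named differences. TRIM22, a restriction factor of retroviruses, read 6.90, 10.26 and 9.89 in SES 24 h, and DDX60, a cofactor of the RNA sensors, read 6.70, 11.23 and 11.29 in tCNT 24 h. Without the low sample the differences went from -0.89 to 0.08 and from -1.55 to -0.04. CXCL10 in Baytube 24 h was 8.86, 9.42 and 11.46, a difference of -1.03 ± 0.62 (SE), where 2 of 3 samples lay below the lowest control at 10.07. It ran from -1.69 without replicate 3 to -0.48 without replicate 1.

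The members with the largest and smallest limma t in the other comparisons overlapped their controls. Over the 12 comparisons ISG15, a ubiquitin-like modifier, differed from control by -0.50 to 0.40, and IFIT1, which binds viral RNA, by -0.94 to 0.61. In the tCNT 6 h samples OAS1, a synthetase that activates RNA degradation, read 13.10, 12.10 and 13.89, and in rCNT 6 h it read 13.15, 13.22 and 12.29. SAMD9 read 9.17, 9.35 and 10.66 in tCNT 6 h and 9.55, 9.50 and 10.42 in Graphite 6 h, against 8.84 to 11.26 in the controls. GBP1, a GTPase that attacks pathogen vacuoles, read 10.50, 10.56 and 10.64 in rCNT 24 h and 10.62, 10.30 and 10.53 in Baytube 24 h, where the controls had a highest value of 10.59. IRF7 read 13.46, 12.65 and 13.02 in tCNT 24 h, a difference of 0.75 ± 0.42 (SE). It was 0.50 without control 24 h replicate 1, which read 11.23 and belongs to column set 6, and 0.14 to 0.96 over the settings. SAMD9L read 10.41, 11.02 and 10.22 in Baytube 6 h against controls from 9.81 to 12.41, a difference of -0.60 ± 0.42 (SE) beside the higher values of most members there. USP18 read 13.60, 13.76 and 13.35 in Graphite 6 h (0.57 ± 0.38, SE) and 13.48, 13.92 and 13.07 in Fullerene 24 h. IFI44 read 12.54, 12.82 and 11.76 in Fullerene 24 h, a difference of -0.43 ± 0.44 (SE).

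Time and material did not separate the list in the comparisons that pool samples. Between control cells at 24 and 6 h, 28 of 38 genes were higher at 24 h (73.7% against 46.2% of all genes), with a median of 0.25, and 0 of 38 passed, as did 0% of all genes. At an unadjusted p under 0.05 there were 0 of 38 and 1.14% of all genes. With all materials together 19 of 38 were above control at 6 h (52% of all genes) and 16 at 24 h (53%), with medians of -0.02 and -0.11. Again 0 of 38 and 0% of all genes passed, and at an unadjusted p under 0.05 there were 0 of 38, beside 3.09% of all genes at 6 h and 5.29% at 24 h. The change of a material's difference with time passed for 0 of 38 in all 6 materials, where 0% of all genes did too. These comparisons share their control samples.

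**Figure D3:**
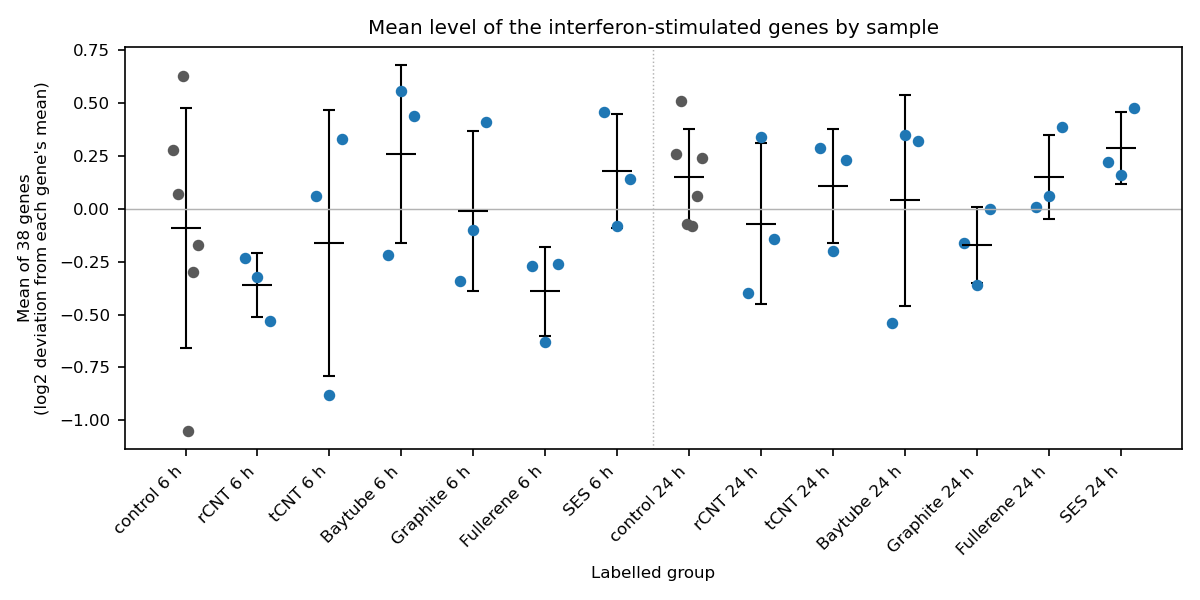
Points are samples, the height is the mean over 38 genes of the log2 deviation from each gene's mean, and the lines are group means with the SD (n = 3, or 6 for control). Control 6 h spans -1.05 to 0.63, the widest range of the 14 groups, with 6 samples against 3.

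The list's spread lay within groups more than between them. Control 6 h replicate 4 was the lowest of 48 samples for 14 genes, with a mean deviation of -1.05, and control 6 h replicate 3 stood at 0.63. Labelled groups held 24.9% of the variance of the list mean, and 27.7% is the share that 14 groups of these samples would hold with no relation. Column sets held 43.4%, where 20 sets would hold 40.4% with no relation. Over single genes the median share between column sets was 63% for the list and 80% for all genes.

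The genes moved together. The median correlation over 703 pairs was 0.36 across the 48 samples, against 0.00 for all genes, as a description of samples that share arrays. MX1, a GTPase that traps viral capsids, had the closest relation to the mean of the other 37 genes (r = 0.91), followed by IFIT3, MX2, IFI44L and OASL, at 0.88 or 0.89. The strongest pair was OASL with MX2, at 0.95. The chemokines CXCL10 and CXCL11 correlated at 0.87, and the pairs within the IFIT family had a median of 0.73 and those within the OAS family of 0.60. MX1 read from 11.90 in control 6 h replicate 4 to 14.35 in control 6 h replicate 3, so controls held both ends of its range. Within labelled groups the median was 0.38, and with the mean of each column set removed, which was added after seeing the data, it was 0.63.

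Not every gene followed. DDX60, TRIM22, IRF9, IRF7 and IFI6 had correlations under 0.2 with the others. For DDX60 it was -0.08 over all samples and 0.86 within column sets, for RSAD2 0.35 and 0.95, for TRIM22 0.06 and 0.69, and for IRF9 0.11 and 0.79. USP18, GBP1 and IFITM3 had 0.31, 0.35 and 0.37 within sets, close to or below their values over all samples.

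**Figure D4:**
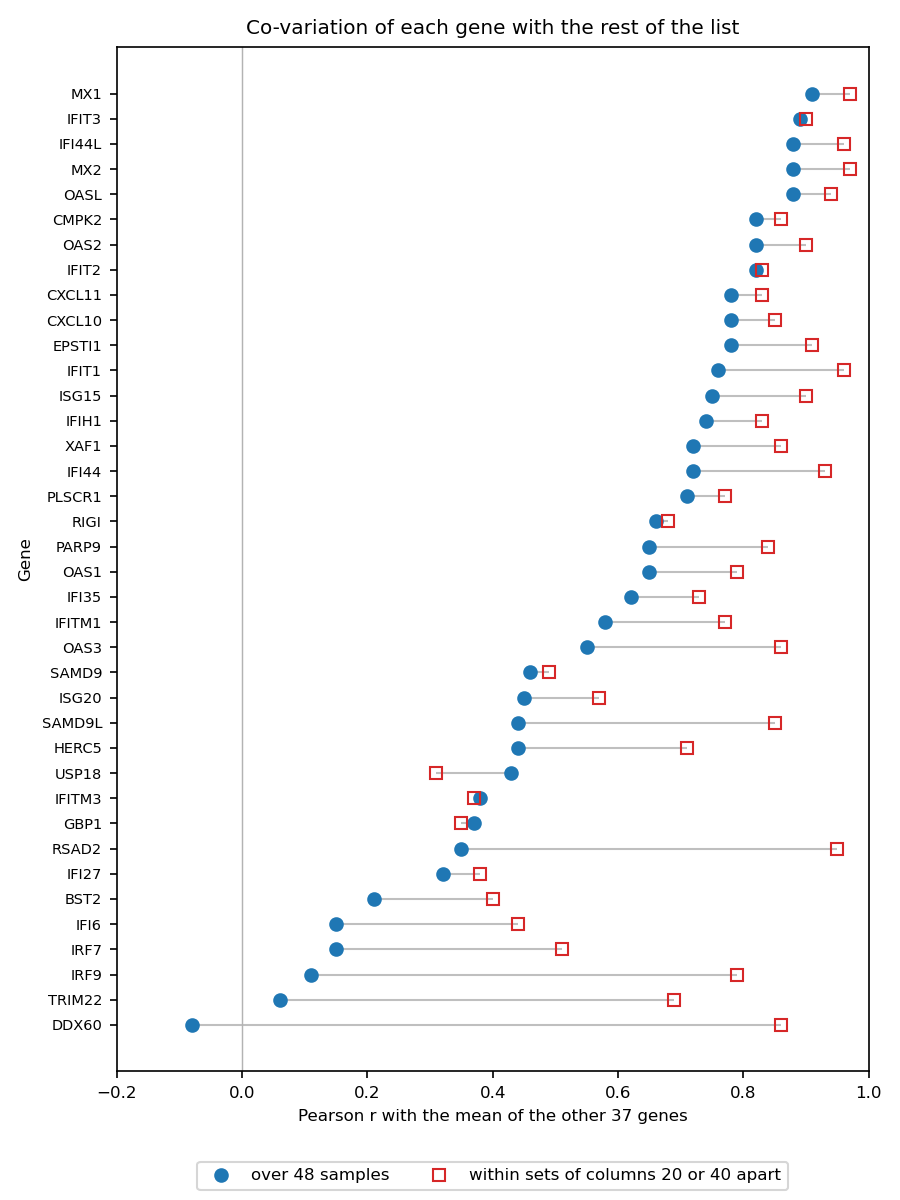
Circles are the Pearson r of each gene with the mean of the other 37 over 48 samples, and squares are r after removing the mean of each column set. DDX60 goes from -0.08 to 0.86 and MX1 from 0.91 to 0.97.

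DDX60 and TRIM22 followed the column sets more than any other members. The column sets held 97.7% of the variance of DDX60 and 93.6% of TRIM22, against a median of 80% for all genes. DDX60 was under a log2 value of 8 in 4 samples of 2 sets. Sets 13 and 16 read 6.67 to 6.70 and 6.94 to 7.05, while every set of 3 samples read 10.00 or above. TRIM22 was under 8 in 12 samples of 6 sets, and RSAD2 in 4 samples of 2 sets, the same sets 13 and 16. The samples of these sets came from Baytube 6 h, tCNT 24 h, control 6 h and Graphite 24 h, so the low values cross materials, times and control. The surface component at the DDX60 feature was -1.52 to -1.50 in set 13 and -1.41 to -1.35 in set 16, and in set 5 it was 0.15 to 0.19. With it removed, 94.6% of the variance of DDX60 and 89.2% of TRIM22 still lay between sets. Graphite 24 h replicate 1 and tCNT 24 h replicate 1, the lowest samples of their groups for DDX60, TRIM22 and RSAD2, belong to these sets. BST2 also had its lowest values in set 16, 13.11 in control 6 h replicate 5 and 13.21 in Graphite 24 h replicate 1.

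**Figure D5:**
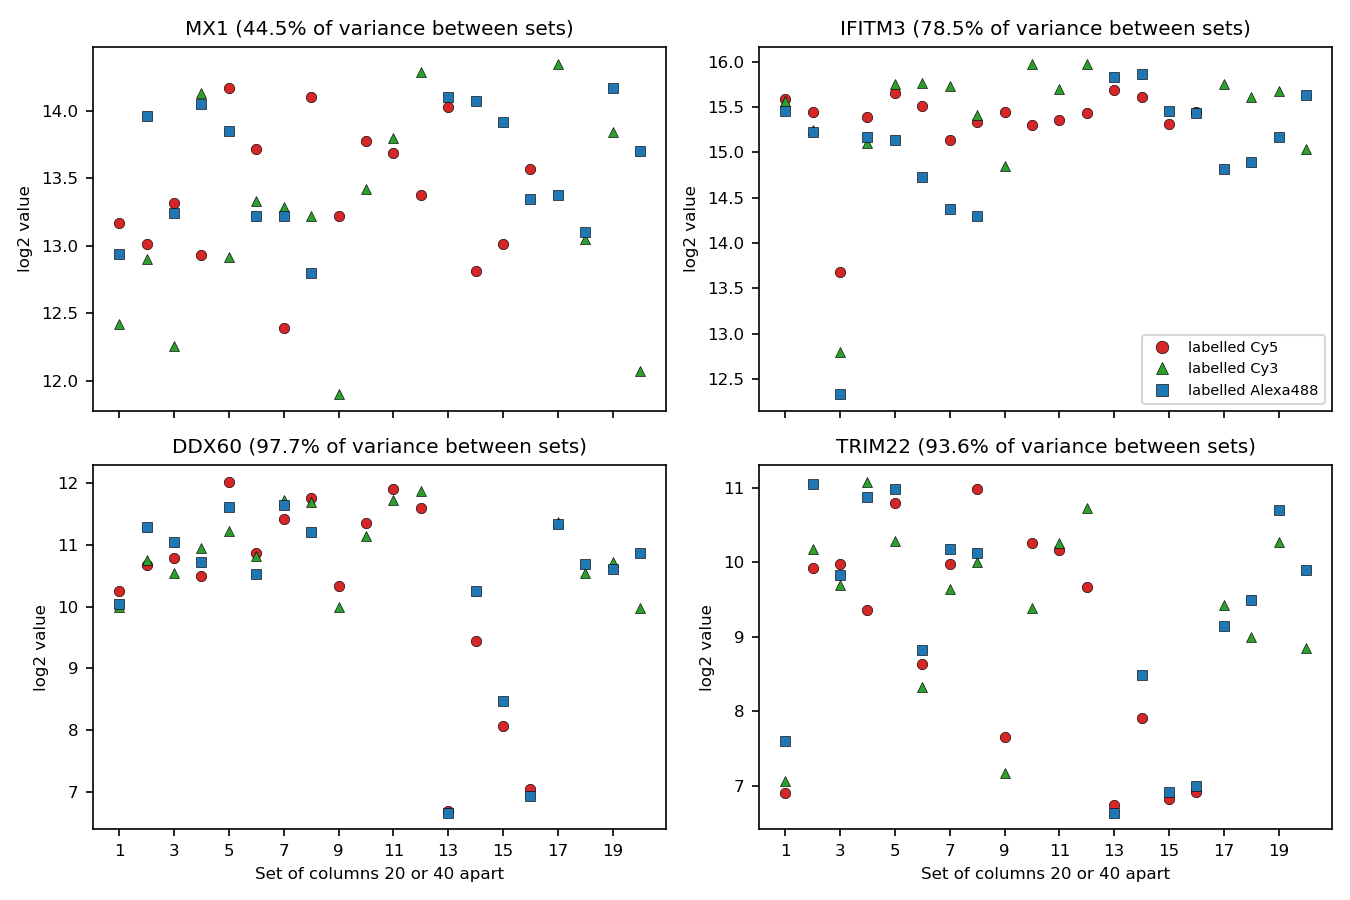
Values of 4 genes, chosen after seeing them, are plotted by column set, with the symbol giving the labelled dye. IFITM3 is low in set 3 and DDX60 in sets 13 and 16, while MX1 varies within sets.

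Genes measured by several features show how far a single feature can be read. HERC5, the ligase that attaches ISG15, and EPSTI1 had 10 features each. For HERC5 the chosen feature correlated with the other genes at 0.44, and the mean of the 10 at 0.76. For EPSTI1 these were 0.78 and 0.91. The SD between the 10 features of a sample had a median of 0.28 over the 48 samples for both genes, and set 16 lay far from that. The chosen HERC5 feature read 12.14 in Graphite 24 h replicate 1, while the 10 features there ran from 6.54 to 12.14 with a median of 8.62. In control 6 h replicate 5, of the same column set, it read 11.71, with a range from 6.63 to 11.71 and a median of 9.03. RIGI, the sensor of viral RNA ends, had a second feature whose correlation with the chosen one was -0.08, and CXCL10 had one at 0.925.

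Of 83 other genes of the pathway, 79 were measured, and 0 passed adjustment in 948 tests against control. At an unadjusted p under 0.01, TYK2, a receptor kinase, was at 1.05 ± 0.33, IRF2 at 2.15 ± 0.77 and the phosphatase PTPN6 at 1.34 ± 0.47 in Fullerene 6 h (SE). In Graphite 24 h, SOCS1, an inhibitor of JAK signalling, was at 1.53 ± 0.53 and TRIM21, an antibody receptor and ligase, at 0.92 ± 0.30 (SE). There ZC3HAV1, which binds viral RNA, was at -2.38 ± 0.83, and the others were ZBP1 at 0.41, IRF5 at 0.67 and PSMB8 at -0.60. Their adjusted p lay between 0.186 and 0.273.

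Among genes outside the list, those most like its mean over 48 samples were IFIT5 (r = 0.76), TNFSF13B (0.72), CCL8 (0.68), NEURL3 (0.63) and SP110 (0.62). Of the 50 most alike, 11 belonged to the 79 pathway genes. The median r with the other members was 0.58 for the 21 measured genes with a promoter match and 0.65 for the 10 without.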

How the data were processed

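Log2 values of 45220 features in 48 samples were taken as the authors deposited them; they run from 6.05 to 16.00, with sample medians from 7.68 to 7.70. The submitters' processing notes name R 2.3 as well as limma, and the normalisation and background correction are not given in the sources used here. Per the labels, samples were hybridised in 3 dyes on 20 arrays of 5 slides.

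Symbols came from the platform annotation: 35268 features had 1 symbol, 0 had several and 9952 had none, and 35128 were updated through a RefSeq table. The members and lists were chosen with earlier results of these data known. Values by sample are given for members past the threshold, for those with the largest and smallest limma t in each material comparison, and for the 6 members with the highest SD; others named were chosen after their values were seen. Tests used limma 3.58.1 in R 4.3.3, fitting 14 groups plus dye (32 residual degrees of freedom), with Benjamini-Hochberg adjustment over 20399 genes.

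The surface component, the column-set block, correlations within sets, the 10-feature genes, the ranking of similar genes and the genes shown by set were chosen after seeing the data. Letters of the sample codes were examined as a possible pairing: the mean correlation of deviations was 0.0059 and the lowest -0.84.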

Additional observations from a re-analysis of the deposited data

Results flagged for a closer look

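In control groups of 6 samples, 78 sets of values were checked for a sample lying far from the others by Dixon's test, and 5 stood apart; chance alone gives about 1 in 20. CMPK2 in control 6 h replicate 4 was 9.79, and the nearest of the other controls was 11.27. PLSCR1 in the same sample was 12.74, against 13.62 for the nearest. In the controls at 24 h, IFITM1 was 12.09 in replicate 5 (nearest 12.61), PARP9 was 11.71 in replicate 6 (nearest 12.15) and XAF1 was 10.24 in replicate 3 (nearest 10.46). Control 6 h replicate 4 was also the lowest of 48 samples for 14 members and belongs to column set 9, where Baytube 6 h replicate 1 had a member mean of -0.22 against its -1.05. Without that control, the median member difference moved from -0.29 to -0.51 in rCNT 6 h and from -0.42 to -0.68 in Fullerene 6 h. It also moved from -0.15 to -0.29 in tCNT 6 h, and it fell from 0.29 to 0.13 in SES 6 h.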

How the results depend on the processing

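The first settings used no dye term, the labelled array as a block, quantile normalisation, median centring or the mean of all features. A trended robust variance and a fit with the dimmest genes left out were also among them. Under these settings no count of called members changed, and no named difference changed its call or direction. Each list median moved by less than its SD between replicates, and its sign was not checked. The other settings changed the results given here, and the cause was not tested. The Fullerene 6 h count of 1 member became 0 with the labelled slide as a term (IFITM3 -1.57, limma adjusted p = 0.066), in a fit of the groups of the contrast only, with controls of code 1 or code 6 only, and with column sets as a random block. Genes called in all there were 106, 0, 14, 4 and 3 in that order, against 91 in the main fit. In the fit of its own groups Graphite 24 h gave 3 members among 814 genes. The list median became -0.57 in Graphite 24 h and -0.03 in SES 24 h with the slide term, and -0.03 in SES 6 h with code 1 controls, where OAS1 in rCNT 6 h turned to -0.05. With code 6 controls it became 0.10 in rCNT 6 h, -0.03 in Fullerene 6 h and 0.64 in SES 6 h. With the column-set block it was -0.86 in Fullerene 6 h, OAS1 turned to -0.25 in rCNT 6 h and -0.20 in tCNT 6 h, and SAMD9L in Baytube 6 h to 0.01. Without the 6 samples whose surface component had an SD above 0.2, the change with time in Fullerene gave 1 member, among 168 genes. Over the settings the list median ran from -0.51 to 0.36 in tCNT 6 h and from -0.31 to 0.46 in Graphite 6 h. It ran from -0.12 to 0.07 in tCNT 24 h and from -0.08 to 0.05 in Fullerene 24 h. In these groups it changed sign while moving by less than the SD between replicates. The median correlation of members was 0.41 with the surface component removed and 0.63 within column sets.

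On leaving out 1 sample at a time, the Fullerene 6 h count ran from 0 to 1, as did the count for its change with time (1 without Fullerene 6 h replicate 1, among 105 genes). Where the Fullerene 6 h count was 0, genes called in all were 2 without Fullerene replicate 2 and 8 without replicate 3. They were 57 to 96 without any 1 of control replicates 1, 2, 3 or 5. TRIM22 in SES 24 h ran from -1.42 to 0.08 and IRF7 in SES 6 h from -1.16 to 0.21. The list median ran from -0.51 to 0.00 in rCNT 6 h, from -0.29 to 0.28 in tCNT 6 h, from -0.11 to 0.32 in Graphite 6 h, from -0.11 to 0.21 in tCNT 24 h and from -0.32 to 0.22 in Baytube 24 h. With the letter of the sample code as a replicate block, IFITM3 in Fullerene 6 h was -1.70 (limma adjusted p = 0.0408), and no other call changed.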

Other observations

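tCNT 6 h replicate 2, with a mean member deviation of -0.88, and SES 24 h replicate 3, at 0.48, belong to the same column set, and their span of 1.36 is the widest of 20 sets. The narrowest was 0.01, in set 18, between control 24 h replicate 5 and Fullerene 24 h replicate 2. Only 2 pairs of samples of the same labelled group lay 20 or 40 columns apart, namely Fullerene 6 h replicates 2 and 3 in set 3 and control 24 h replicates 2 and 3 in set 8. The member mean of the first pair was -0.63 and -0.26, and that of the second was 0.51 and -0.07.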
